A study of Mus musculus with 18 samples.

Results

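RNA was compared between wild-type mouse molar epithelium at postnatal day 5 (P5, 3 libraries) and at embryonic day 17 (E17, 3 libraries). These 6 libraries were chosen by their genotype and stage labels, out of 18 in a series that also holds wild type at P0 and an Hmgn1-/-; Hmgn2-/- double knockout at the same stages, with 3 libraries in each of the 6 groups. In every group, tooth germs were treated with dispase to separate the epithelium from the mesenchyme, and total RNA depleted of ribosomal RNA was sequenced. The wild-type animals carried no listed allele or other treatment. The labels name neither a strain nor a sex, and they do not say how many animals or litters stand behind the replicates or whether tooth germs were pooled.

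The dental epithelium makes enamel. Cells of the inner enamel epithelium divide, leave the cell cycle, elongate into ameloblasts on a basement membrane and then secrete a protein matrix in which the mineral forms. Amelogenin is the main protein of that matrix, ameloblastin and enamelin are less abundant, and the proteases Mmp20 and Klk4 cut and clear them, Mmp20 early and Klk4 later.

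The deposited alignments per library numbered 43.9 to 63.3 M at P5 and 66.0 to 93.2 M at E17. At P5 the table names 19450 gene symbols, and at E17 it names 32532. The RPKM of all transcripts of a symbol (reads per length of transcript and per mapped reads, so that levels of different genes can be compared) were summed for the 18588 symbols found in both. Each library was then divided by its upper quartile, with scale factors of 0.905 to 0.989 at P5 and 1.05 to 1.08 at E17, and 12902 genes that reached an RPKM of 1 in 3 or more of the 6 libraries were kept. Values below are these scaled RPKM, given as mean ± SD over 3 libraries where 2 numbers are joined.

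The tables of the 2 stages were normalized separately and rest on different transcript annotations, so stage, table and annotation cannot be told apart and no test was run across them. A gene was called when the stage means of log2(scaled RPKM + 1) differed by at least 2, which is 4-fold, and the 3 libraries of one stage did not overlap the 3 of the other. The added 1 makes the log2 difference of genes with low values smaller than their ratio. By this rule 330 genes were higher at P5, 2.56% of the genes kept, and 454 were lower, 3.52%, together 6.08%. The difference was at least 16-fold for 52 of the higher genes and 73 of the lower ones. The median gene differed by -0.16 on the log2 scale, and 76.9% of genes lay within 2-fold. Libraries without overlap at any size of difference were common, with 31.8% of genes higher and 49.9% lower at P5, together 81.7%, so a lack of overlap alone says little about a gene. Across genes, log2 values correlated at 0.993 to 0.996 between libraries of a stage and at 0.788 to 0.810 between libraries of different stages. Genes lay close to both sides of the limit, with Slc17a9 just called at 2.0003 and Ern1 just missed at 1.99, and with Shcbp1 just called at -2.0008 and Pth1r just missed at -1.99.

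**Figure D1:**
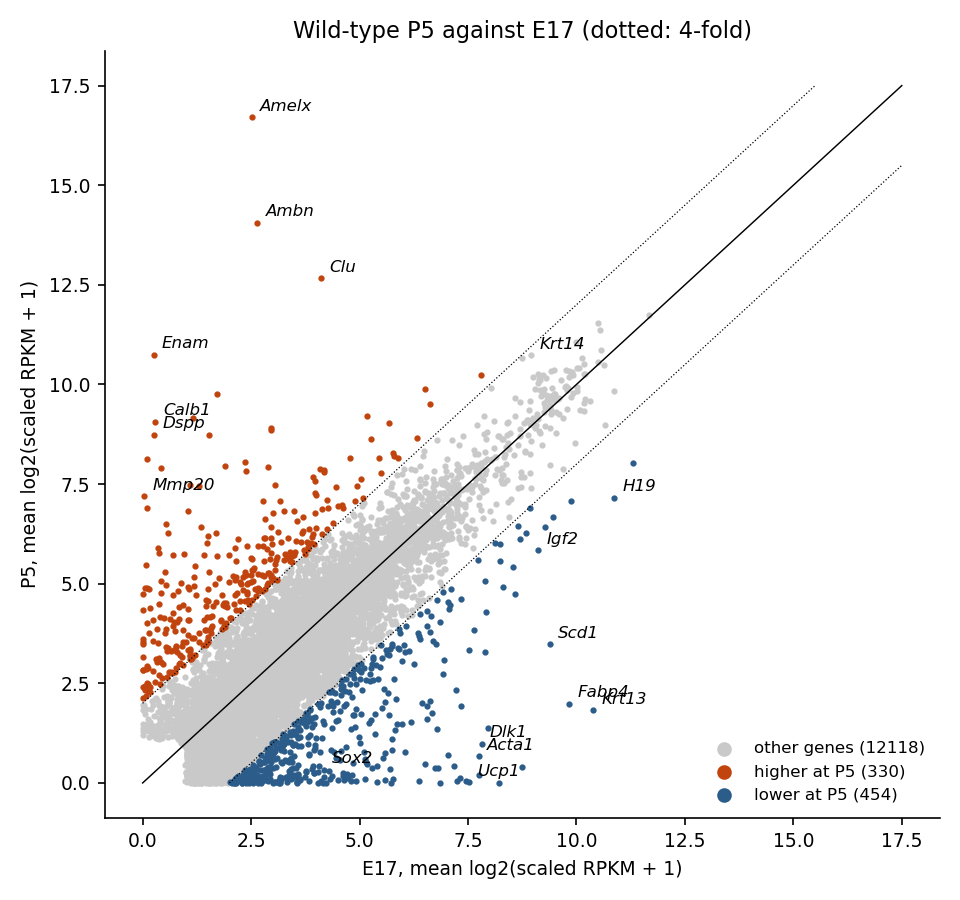
Mean log2(scaled RPKM + 1) of 12902 genes over 3 wild-type P5 libraries (vertical axis) against 3 wild-type E17 libraries (horizontal axis), with the line of equality and dotted lines at a 4-fold difference. Genes called higher at P5 (330) lie above the upper dotted line, led by Amelx, Ambn, Clu and Enam, and genes called lower (454) lie below the other.

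The largest differences were those of the enamel matrix genes. Of 12 listed genes for matrix proteins and their proteases, 11 were in both tables, 10 passed the filter on low values, and 9 were called higher at P5. Their median difference was 6.65 over the 10, against -0.16 over all genes kept. Of all genes kept, 2.56% were called higher. A gene near 0 at E17 passed the filter only through its P5 libraries, which favours a higher call in this list. Amelx, which encodes amelogenin, had 105014, 117071 and 99970 scaled RPKM in the P5 libraries, against 4.47, 5.32 and 4.46 in the E17 libraries. Ambn, for ameloblastin, had 15327, 19545 and 16624 at P5, against 4.28, 6.49 and 5.16 at E17. Amelx and Ambn held rank 1 and 2 of all genes kept at P5, against 8495 and 8065 at E17, and together they made up 25.3% to 28.3% of the summed RPKM of a P5 library. The log2 differences were 14.19 for Amelx and 11.42 for Ambn, with no overlap between stages.

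Enam, for enamelin, had 1762, 1721 and 1686 scaled RPKM at P5, against 0.168, 0.223 and 0.189 at E17. Its log2 difference was 10.50 and it ranked 9 at P5. Mmp20, for the protease of the secretory stage, had 141, 153 and 142 at P5, against 0, 0.0201 and 0.0417 at E17, so it was near 0 in every E17 library. Klk4, for the protease of the maturation stage, was called as well but stayed low, with 4.14, 3.72 and 6.23 at P5 against 0.0190, 0.132 and 0.110 at E17 (log2 difference 2.37).

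Dspp encodes a dentin matrix precursor that early ameloblasts also make for a short time. It had 505, 351 and 441 scaled RPKM at P5, against 0.204, 0.193 and 0.209 at E17. Mesenchyme RNA was present at both stages, as described below, and the part of odontoblasts, which make dentin, in the Dspp values was not tested. Odam and Amtn encode proteins of the ameloblast's attachment to maturing enamel. Odam had 183, 162 and 175 at P5, against 1.996, 0.917 and 1.66 at E17. Amtn had 8.73, 39.2 and 20.4 at P5 and was listed at 0 in all 3 E17 libraries, so no fold is given. Csn3, for kappa-casein, a milk protein gene that lies beside the enamel genes, had 26.0, 68.0 and 46.0 at P5, against 0.0959, 0.0300 and 0.0485 at E17. The P5 libraries therefore spread more for Amtn and Csn3 than for Enam or Mmp20, and replicate 2 was the highest of the 3 for Amelx, Ambn, Amtn and Csn3. Tuft1, for tuftelin, was the member not called, with 8.53 ± 0.28 at P5 and 10.9 ± 0.35 at E17. Odaph fell under the filter, at 0.376 ± 0.148 at P5 and 0.0612 ± 0.0625 at E17, and Fdcsp was not analysed here.

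**Figure D2:**
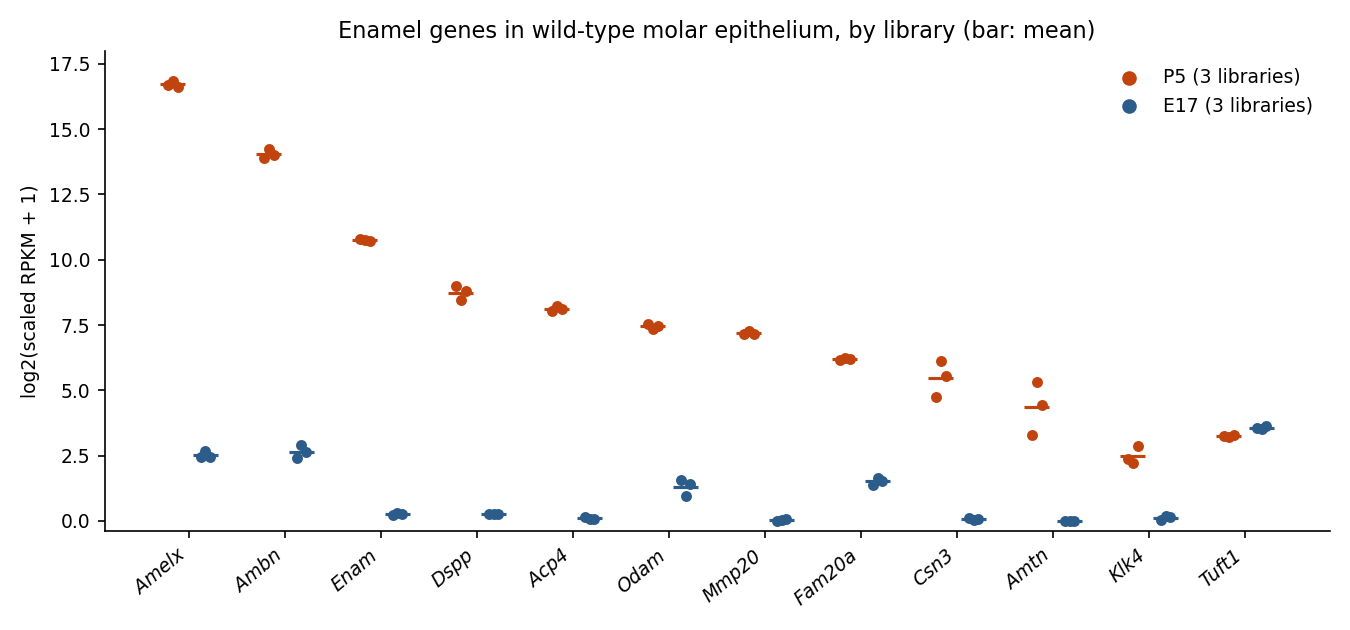
log2(scaled RPKM + 1) of 12 enamel genes in 3 wild-type P5 libraries (left of each pair) and 3 wild-type E17 libraries (right), with a bar at each mean. All genes shown lie higher in every P5 library than in any E17 library, except Tuft1, which lies lower.

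On the mm10 assembly these genes were spread over several chromosomes. Odam (chr5:87885029-87894174), Csn3 (chr5:87925579-87932665), Amtn (chr5:88376108-88385916), Ambn (chr5:88455991-88468531) and Enam (chr5:88487975-88506049) lie in this order in one region, on the plus strand. Dspp lies farther along the same chromosome (chr5:104170712-104180127), Amelx on the X chromosome (chrX:169176114-169187200, minus strand), Mmp20 on chromosome 9 and Klk4 on chromosome 7. The RefSeq promoter table of build GRCm38.p6 held windows for 8 of the 12 listed genes. The 120 bases before the start site are shown for 5 of them because all 5, on chromosomes 5 and X, carry the letters TGATTGG on the gene's own strand, in capitals here. This is the reverse of a CCAAT box, the binding motif of the factor NF-Y, and it was noticed after the sequences were read.
Amelx, chrX:169187210-169187329, minus strand: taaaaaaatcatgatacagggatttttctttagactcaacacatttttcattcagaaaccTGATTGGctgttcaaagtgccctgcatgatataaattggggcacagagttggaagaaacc
Ambn, chr5:88455871-88455990, plus strand: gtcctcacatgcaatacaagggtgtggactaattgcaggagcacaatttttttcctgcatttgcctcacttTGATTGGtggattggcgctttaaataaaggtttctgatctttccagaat
Enam, chr5:88487855-88487974, plus strand: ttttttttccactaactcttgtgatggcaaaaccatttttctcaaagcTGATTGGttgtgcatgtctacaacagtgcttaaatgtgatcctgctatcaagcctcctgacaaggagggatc
Odam, chr5:87884890-87885009, plus strand: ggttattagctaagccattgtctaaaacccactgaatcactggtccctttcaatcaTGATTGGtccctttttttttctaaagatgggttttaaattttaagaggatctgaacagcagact
Amtn, chr5:88375988-88376107, plus strand: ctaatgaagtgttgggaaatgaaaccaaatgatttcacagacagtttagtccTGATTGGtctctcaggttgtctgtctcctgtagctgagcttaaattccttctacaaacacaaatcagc

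The motif ended 53 bases before the start of Amelx, 42 before Ambn, 65 before Enam, 57 before Odam and 61 before Amtn. The windows of Mmp20, Klk4 and Odaph did not hold these letters on either strand. Counted on the gene's strand, TGATTGG stood in 4.01% of all 32851 RefSeq windows of 300 bases and in 5.37% of the windows of genes kept. It stood in 5.41% of the windows of genes called higher at P5 and in 4.74% of those called lower. Counted on either strand, the shares were 7.82% of all windows, 10.1% of windows of genes kept, 8.45% for genes called higher and 11.2% for genes called lower. The share among all genes called higher was therefore near that of the genes kept. These matches describe letters only.

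Outside the matrix genes, the largest differences upward were led by Calb1, Clu and Acp4. Calb1 encodes the calcium-binding protein calbindin and had 566, 493 and 551 scaled RPKM at P5, against 0.305, 0.133 and 0.219 at E17. Clu encodes the secreted chaperone clusterin and was the third most abundant gene kept at P5, with 6956, 5957 and 6668, against 16.3, 16.5 and 16.04 at E17. Acp4 encodes an acid phosphatase needed for enamel and had 263, 298 and 274 at P5, against 0.0980, 0.0560 and 0.0630 at E17. The log2 differences were 8.78 for Calb1, 8.56 for Clu and 8.02 for Acp4, with libraries close together within each stage.

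The remaining genes among the 15 largest differences upward were Ctnna2, Crtac1, Gal3st4, Rps27rt, Aplp1 and Tesc. Ctnna2, for the neuronal form of alpha-catenin, which links cadherins to actin, averaged 177 ± 1.63 at P5 and 1.14 ± 0.0616 at E17. Crtac1, for a secreted cartilage matrix protein, averaged 247 ± 4.27 at P5 and 2.76 ± 0.84 at E17. Aplp1, for a relative of the amyloid precursor protein, averaged 467 ± 56.3 at P5 and 6.78 ± 0.68 at E17. Tesc, for the calcium-binding protein tescalcin, averaged 112 ± 0.88 at P5 and 1.05 ± 0.16 at E17. Rps27rt averaged 478 ± 24.6 at P5 and 6.79 ± 0.13 at E17. It is a near-identical copy of the ribosomal gene Rps27, so its reads may be shared and its value is uncertain.

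Genes in which mutations cause inherited enamel defects were often higher at P5 even outside the matrix list. Of 23 listed, 20 passed the filter, 11 were called higher, against 2.56% of all genes kept, and none lower. Of the 20, 17 were higher with no overlap, against 31.8% of all genes. Fam20a, which activates the kinase that phosphorylates secreted enamel proteins, had 71.3, 74.7 and 72.4 scaled RPKM at P5, against 1.58, 2.15 and 1.88 at E17. Relt, for a receptor of the tumour necrosis factor family, had 49.5, 54.5 and 51.4 at P5, against 1.61, 1.46 and 1.89 at E17. Slc13a5, for a plasma membrane citrate transporter, averaged 69.5 ± 5.36 at P5 and 9.20 ± 0.23 at E17. The log2 differences were 4.69 for Fam20a, 4.32 for Relt and 2.79 for Slc13a5. Wdr72 and Slc24a4, which act in enamel maturation, were among the genes under the filter.

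Lama3 and Lamb3, for laminin chains of the basement membrane that anchors epithelia, differed by similar amounts. Lama3 had 113, 105 and 110 scaled RPKM at P5, against 6.45, 7.17 and 7.40 at E17. Lamb3 had 207, 192 and 208 at P5, against 14.3, 15.01 and 13.4 at E17. The log2 differences were 3.78 for Lama3 and 3.74 for Lamb3, and the stages did not overlap for either. Itgb6, for an integrin subunit needed for normal enamel, averaged 13.7 ± 0.55 at P5 and 0.453 ± 0.0243 at E17. In the whole list of laminins, basement membrane genes and their integrins, 6 of 28 genes over the filter were called higher and 1 lower. This was 25% of the list, against 6.08% of all genes kept. The lower one was Col4a5, for a collagen chain of basement membranes, at 0.959 ± 0.352 at P5 and 10.1 ± 0.71 at E17. Col17a1, for a hemidesmosome collagen, was not called, at 84.0 ± 5.13 at P5 and 32.1 ± 1.83 at E17.

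Among genes of ion, calcium and pH transport, 5 of 21 over the filter were called higher and none lower. Over all genes kept, 2.56% were called higher and 3.52% lower. Besides Calb1 the listed genes called higher were Slc20a2, Itpr3, Gja1 and Slc4a4. The phosphate transporter Slc20a2 averaged 155 ± 8.38 at P5 and 14.8 ± 1.02 at E17. The gap junction gene Gja1, whose mutation causes enamel defects in humans, averaged 731 ± 27.6 at P5 and 98.3 ± 5.55 at E17. The bicarbonate cotransporter Slc4a4 averaged 39.6 ± 0.0915 at P5 and 4.81 ± 0.66 at E17, and the calcium release channel Itpr3 averaged 49.8 ± 7.88 at P5 and 4.62 ± 0.37 at E17. Car6, Slc26a1, Slc26a4, Calb2, S100g and Slc34a2 were in both tables but under the filter.

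Secretory pathway genes differed by small amounts. Of 48 genes, all over the filter, 37 were higher at P5 with no overlap and 3 lower, against 31.8% and 49.9% of all genes kept, but only Sec61g was called. Their median log2 difference was 0.54, against -0.16 over all genes, and with total RPKM scaling it was 0.02 against -0.61, with 25 of the 48 above 0. Sec61g, for a subunit of the channel into the endoplasmic reticulum, averaged 82.0 ± 5.35 at P5 and 18.1 ± 1.27 at E17 and was not called without scaling or with total RPKM scaling.

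**Figure D3:**
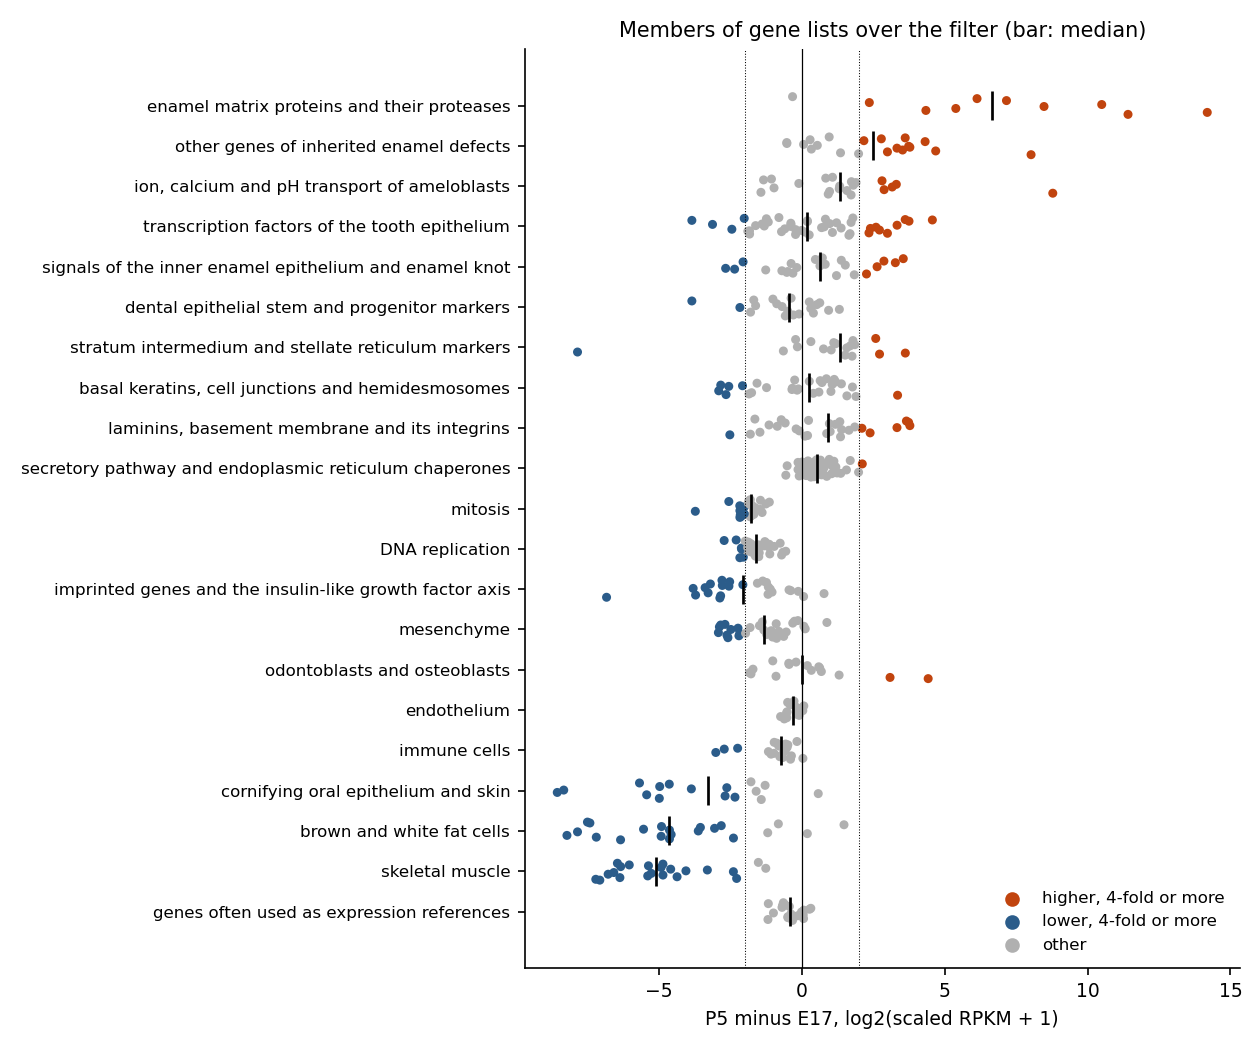
Log2 difference in scaled RPKM + 1, P5 minus E17, for every member over the filter of 21 gene lists, with a bar at each list's median and dotted lines at a 4-fold difference. Enamel matrix genes reach 14.19 and their median is 6.65, while skeletal muscle, fat cell and cornifying epithelium genes have medians of -5.09, -4.63 and -3.27.

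Transcription factors of the tooth epithelium changed in both directions. Of 45 over the filter, 9 were called higher at P5 and 4 lower, 28.9% in all against 6.08% of all genes kept. Their median was 0.20, or -0.27 with total RPKM scaling. Sox21, a factor that keeps the dental epithelium on the enamel path in mice, had 74.2, 74.2 and 78.9 scaled RPKM at P5, against 2.22, 2.14 and 2.33 at E17. Sp6, also called epiprofin and required for ameloblast differentiation, had 246, 200 and 223 at P5, against 19.2, 13.6 and 19.2 at E17. The genome organizer Satb1 had 61.3, 53.2 and 61.3 at P5, against 3.40, 3.12 and 3.72 at E17. The homeobox gene Msx2, also required for enamel, had 70.1, 71.3 and 67.4 at P5, against 5.86, 6.25 and 5.86 at E17. The log2 differences of these 4 were 4.57, 3.62, 3.75 and 3.34, and the homeobox genes Dlx3 and Dlx4 were called higher too.

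The 4 factors called lower were Sox2, Nkx2-3, Grhl3 and Tfap2b. Sox2 marks epithelial progenitors of the tooth and of the mouth lining and had 0.158, 0.406 and 0.239 scaled RPKM at P5, against 17.2, 16.6 and 17.6 at E17. Nkx2-3, a homeobox gene of oral and gut tissues, averaged 0.663 ± 0.269 at P5 and 13.4 ± 1.63 at E17. In the list of dental epithelial stem and progenitor markers, only Sox2 and Lgr5 were called among 20 genes over the filter, both lower. The called share was 10%, against 6.08% of all genes kept. Lgr5, a Wnt-responsive receptor of stem cells, had 0.124, 0.382 and 0.175 at P5, against 4.16, 5.03 and 4.26 at E17.

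Secreted signals of the inner enamel epithelium also split. Of 23 over the filter, 5 were called higher and 3 lower, 34.8% in all against 6.08% of all genes kept. Shh, the hedgehog ligand of the inner enamel epithelium and stratum intermedium, had 140, 93.4 and 127 scaled RPKM at P5, against 20.1, 14.6 and 20.4 at E17. Wnt6 had 129, 91.5 and 119 at P5, against 8.86, 8.65 and 8.35 at E17. Wnt10a, whose mutations cause missing teeth, had 68.1, 51.5 and 63.1 at P5, against 5.31, 5.46 and 5.25 at E17. Replicate 2 was the lowest P5 library for Shh, Wnt6 and Wnt10a. The log2 differences were 2.64 for Shh, 3.55 for Wnt6, 3.28 for Wnt10a and 2.88 for Wnt3a. The genes called lower were Inhba and Fst, an activin subunit and the activin-binding follistatin, and Wnt10b. Inhba averaged 0.892 ± 0.113 at P5 and 11.2 ± 2.98 at E17, and Fst 2.92 ± 1.07 at P5 and 18.5 ± 1.12 at E17.

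Other pathway genes were called in both directions. Of 16 hedgehog pathway genes over the filter, Shh alone was called, a share near the 6.08% of all genes kept. Ptch1, the hedgehog receptor, averaged 32.6 ± 0.63 at P5 and 20.8 ± 3.14 at E17, and Gli1, a target gene of the pathway, averaged 44.2 ± 3.12 at P5 and 22.5 ± 1.9 at E17. Among 31 Wnt pathway genes, Rspo4, a secreted enhancer of Wnt signalling, was called higher. Sfrp2 and Frzb, secreted Wnt antagonists that mesenchyme also makes, were called lower. The called share of this list was 9.68%, near the 6.08% of all genes kept. Rspo4 had 18.7, 44.6 and 24.5 at P5, against 0.461, 1.38 and 0.534 at E17. Sfrp2 averaged 5.63 ± 0.25 at P5 and 121 ± 2.58 at E17. Among 30 BMP and TGF-beta genes, Id4, Bambi and Smad6, all responsive to or restraining this pathway, were called higher, and Ltbp1 and Bmp6 lower. The calls of Smad6 and Bmp6 lay at the limit and did not hold in 9 and 6 of 19 alternatives, among them other scalings. These counts include the 8-fold limit, which such calls cannot pass. They also include the set of single-transcript genes, in which only 25 of 136 named and called genes were tested. Id4 averaged 65.3 ± 0.48 at P5 and 8.17 ± 1.03 at E17, and Bambi 53.5 ± 0.89 at P5 and 6.81 ± 0.0923 at E17. Among 18 FGF genes, Fgf1 was called higher, at 13.1 ± 0.38 at P5 and 0.685 ± 0.1 at E17, and Fgfbp1 and Fgf18 lower. The called share was 16.7% in the BMP and TGF-beta list and again in the FGF list.

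Markers of the other enamel organ layers, the stratum intermedium and stellate reticulum, had a median log2 difference of 1.36, and 13 of 18 were higher at P5 with no overlap, against 31.8% of all genes. Called higher were Enpp2, for the lipid-signalling enzyme autotaxin, Cldn10, for a claudin, and Vwde. The called share was 22.2% in both directions together, against 6.08% of all genes kept. Enpp2 had 200.7, 176 and 199 scaled RPKM at P5, against 14.0, 17.2 and 12.9 at E17. Alpl, the phosphatase of the stratum intermedium, was not called, at 297 ± 21.9 at P5 and 87.2 ± 12.4 at E17, and neither were Notch2, Jag1 and Notch1, with differences of 1.79, 1.70 and 0.32. The listed Fabp4 was lower by 7.84 on the log2 scale, and it is also a fat cell gene.

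Basal epithelial keratins were among the most abundant genes at P5 and were abundant at E17. Krt5 and Krt14, the keratin pair of basal epithelial cells, averaged 2149 ± 167 and 1710 ± 67.8 at P5, against 1025 ± 84.8 and 499 ± 35.4 at E17, and neither was called. Of 29 genes for basal keratins, junctions and hemidesmosomes, 1 was called higher and 5 lower, 20.7% in all against 6.08% of all genes kept. The higher one was the tight junction gene Cldn1, at 113 ± 7.36 at P5 and 10.2 ± 0.59 at E17. Lower were Dsg3, a desmosomal cadherin of the mouth lining and skin, at 1.95 ± 0.32 at P5 and 21.0 ± 1.05 at E17, and the keratins Krt19, Krt15 and Krt18. Krt15 had 51.7, 119 and 74.0 at P5, against 509, 403 and 462 at E17, and Krt19 averaged 5.19 ± 1.46 at P5 and 42.4 ± 5.52 at E17. Cldn4 averaged 1.32 ± 0.31 at P5 and 13.4 ± 0.88 at E17.

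Genes of the cell cycle were lower at P5, most of them by less than the 4-fold limit. All 30 mitosis genes listed were lower with no overlap, against 49.9% of all genes. Of these 30, 10 were called (33.3%), against 3.52% of all genes kept. Their median log2 difference was -1.79. All 34 DNA replication genes were also lower with no overlap, 6 were called (17.6%), and their median was -1.60. Differences under 4-fold may include an effect of annotation, which was not tested. The medians ranged from -2.25 to -1.63 for mitosis and from -2.01 to -1.47 for replication under the other scalings tried. Cdk1, the kinase that starts mitosis, had 3.38, 3.51 and 3.15 scaled RPKM at P5, against 60.1, 52.5 and 56.5 at E17. Top2a, the topoisomerase of dividing cells, had 9.60, 8.96 and 9.17 at P5, against 58.2, 60.4 and 58.4 at E17. Tyms, for thymidylate synthase, had 2.71, 3.13 and 2.68 at P5, against 24.6, 24.8 and 23.0 at E17. The log2 differences were -3.72 for Cdk1, -2.55 for Top2a and -2.71 for Tyms. Mki67, the usual marker of cycling cells, was not called, at 6.22 ± 0.36 at P5 and 23.7 ± 2.38 at E17.

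Among 6 inhibitors of cyclin-dependent kinases over the filter, 1 was called in each direction, 33.3% in all against 6.08% of all genes kept. Cdkn1a, for p21, had 203.4, 185 and 202.6 scaled RPKM at P5, against 35.0, 28.2 and 32.8 at E17. Cdkn1c, for p57, which is imprinted, had 67.2, 107 and 84.0 at P5, against 675, 569 and 622 at E17. Cdkn1b, for p27, was not called, at 30.9 ± 1.57 at P5 and 15.5 ± 0.46 at E17.

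Imprinted genes of fetal growth were lower at P5. Of 25 imprinted and insulin-like growth factor genes over the filter, 13 were called lower and none higher. Their median was -2.06, and 3.52% of all genes kept were called lower. Igf2, the fetal growth factor, had 50.8, 63.95 and 54.6 scaled RPKM at P5, against 552, 540 and 566 at E17. H19, the noncoding RNA beside it, had 128, 168 and 133 at P5, against 1985, 1694 and 1958 at E17. The noncoding Meg3 averaged 13.2 ± 0.71 at P5 and 197 ± 11.7 at E17, Mest 29.3 ± 1.28 at P5 and 315 ± 20.2 at E17, and the zinc finger gene Plagl1 5.09 ± 0.66 at P5 and 54.6 ± 3.03 at E17. Dlk1 was lower by 6.83 on the log2 scale, at 0.991 ± 0.247 at P5 and 226 ± 32 at E17. Several of these genes are also expressed in mesenchyme, muscle or fat precursors. In bulk tissue fewer cells of a type and less RNA per cell cannot be told apart.

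Markers of tissues other than tooth epithelium made up 12 of the 15 largest differences downward, and they varied between E17 libraries. A gene near 0 at P5 passed the filter only through its E17 libraries, which favours a lower call in such lists. Of 22 skeletal muscle genes over the filter, 20 were called lower, against 3.52% of all genes kept. Their summed scaled RPKM was 8.72, 7.79 and 7.33 in the P5 libraries, against 2213, 944 and 1832 in the E17 libraries, replicate 2 being the lowest. Acta1, the actin of skeletal muscle fibres, had 0.527, 0.540 and 0.754 at P5, against 303, 122 and 262 at E17, and Actc1, Myl1, Mylpf, Tnnt3 and Ckm followed the same order of libraries at E17. Of 16 genes of cornifying mouth and skin epithelium, 11 were called lower, also against 3.52%. The sums of this list were 70.8, 85.1 and 72.9 at P5, against 3056, 2130 and 2786 at E17. Krt13 and Krt4, the keratin pair of the mouth lining, led all differences downward at -8.55 and -8.33. Krt13 had 0.122, 8.17 and 3.37 at P5, against 1573, 1069 and 1410 at E17.

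Fat cell genes differed in the same way, in a list made after its leading members had been seen among the differences. Of 21 over the filter, 17 were called lower, against 3.52% of all genes kept. The sums of this list were 32.3, 33.1 and 33.6 at P5, against 2865, 2214 and 2349 at E17. Ucp1, the uncoupling protein of brown fat, had 0, 0.0487 and 0 at P5, against 213, 165 and 173 at E17. Fabp4, a lipid carrier of fat cells, had 3.37, 1.88 and 3.98 at P5, against 1058, 817 and 875 at E17. Cox8b was listed at 0 in all 3 P5 libraries and averaged 298 ± 47.8 at E17. Cidea, Thrsp, Gpd1 and Pck1, genes of lipid droplets, fat synthesis and glycerol metabolism, were also among the 15 largest differences downward. The part of muscle, cornifying and fat tissue in the differences of genes that other epithelia also express, such as Krt15, Dsg3, Sox2 and Nkx2-3, was not tested.

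Markers of mesenchyme were lower as well but stayed abundant. Of 29 over the filter, 10 were called lower, against 3.52% of all genes kept. The list's sums were 2539 to 2704 scaled RPKM at P5 and 4781 to 5321 at E17. Postn, for periostin, averaged 32.4 ± 3.65 at P5 and 237 ± 5.18 at E17, and Col6a3 7.40 ± 0.77 at P5 and 62.6 ± 8.5 at E17. Pax9, a factor of the dental mesenchyme that oral epithelium also expresses, averaged 1.18 ± 0.22 at P5 and 15.03 ± 1.2 at E17. Col1a1 was not called, at 915 ± 34.4 at P5 and 1856 ± 136 at E17, so mesenchyme RNA was present at both stages. Of 16 genes of odontoblasts and osteoblasts, 2 were called (12.5%, against 6.08% of all genes kept), Bglap and Bglap2 for osteocalcin, both higher. Bglap had 167, 186 and 175 at P5, against 9.89, 4.92 and 7.67 at E17. The 2 are near-identical copies, so reads may be shared between them.

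Of 9 red cell genes over the filter, Hbb-bs and Hbb-bt, the adult beta-globins, were called lower. This was 22.2% of the list, against 3.52% of all genes kept. The list's sums were 1500 to 1617 scaled RPKM at P5 and 5541 to 6772 at E17. Immune markers summed to 113 to 149 at P5 and 234 to 256 at E17. Among them 3 of 22 were called lower, against 3.52% of all genes kept. None of 16 endothelial genes and none of 20 genes often used as expression references was called in either direction. With 6.08% of all genes kept called, few calls would be expected in lists this short, so this does not show stable levels. With no overlap, 11 of the 16 and 12 of the 20 were lower at P5, against 49.9% of all genes. Higher with no overlap were 0 of the 16 and 2 of the 20, against 31.8%. Of 11 nerve and glia genes, Tubb3 and Stmn2, for a neuronal tubulin and a microtubule regulator, were called higher and Ngfr lower. The called share was 27.3%, against 6.08% of all genes kept, and the list's median was -0.79. With no overlap, 3 were higher and 6 lower, against 31.8% and 49.9% of all genes. Tubb3 had 101, 66.8 and 91.6 at P5, against 6.77, 6.90 and 6.76 at E17. Xist, the RNA that silences an X chromosome in females, had 0.427, 0.831 and 1.17 at P5, against 48.8, 50.1 and 59.4 at E17. The Y-linked Ddx3y averaged 11.1 ± 0.45 at P5 and 5.34 ± 1.18 at E17, and Eif2s3y 26.1 ± 0.44 at P5 and 6.55 ± 1.7 at E17. Xist was thus near 0 at P5 and detected at E17, Y-linked genes were detected at both stages, and the part of the animals' sexes in other differences was not tested.

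**Figure D4:**
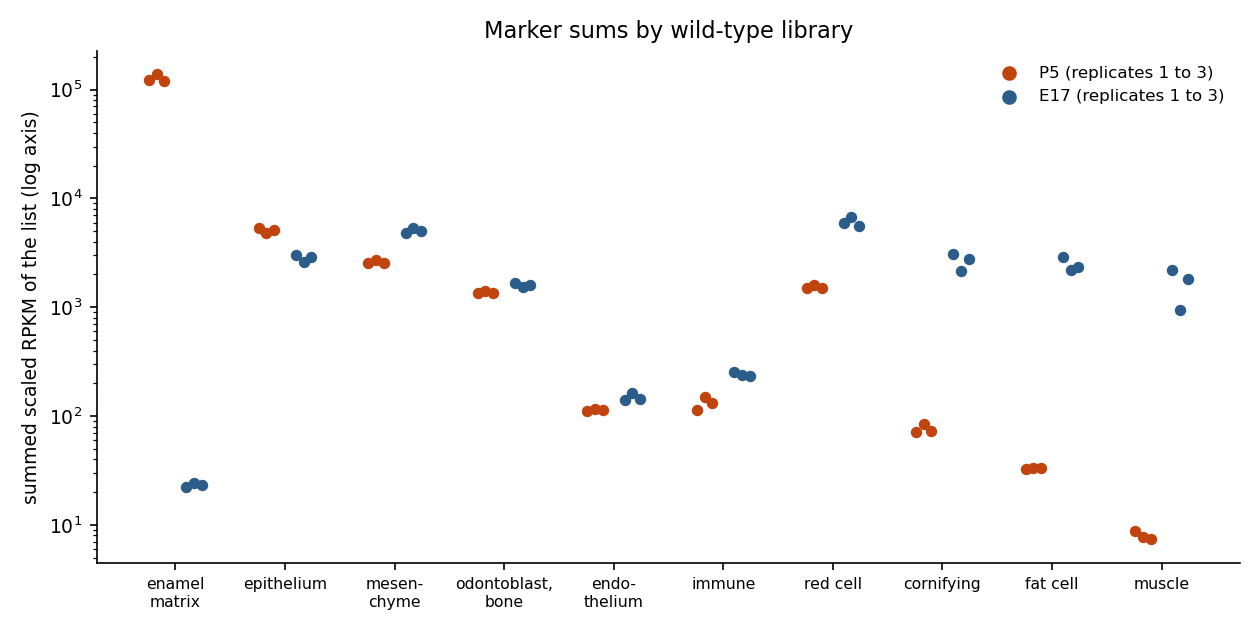
Summed scaled RPKM (log axis) of 10 marker lists in 3 wild-type P5 libraries (left of each pair) and 3 wild-type E17 libraries (right). Muscle, fat cell and cornifying sums lie far apart between stages, at 7.33 to 8.72 against 944 to 2213 for muscle, while endothelial and odontoblast sums lie close together.

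The wild-type libraries at P0 give a middle stage for some of these genes. The P0 table holds genes of chromosomes 1 and 10 and of chromosome 11 up to position 96873954, and 54 of the genes called higher and 67 of those called lower could be followed. These values were scaled over the 2091 genes kept in all 3 tables and differ somewhat from those above. P0 and E17 share the form of transcript names, and P5 does not, so a change seen only at P5 cannot be told apart from a change of annotation. Rpl26, for a ribosomal protein, averaged 1027 ± 122 at E17, 1154 ± 46.4 at P0 and 149 ± 12.2 at P5. Sf3b5, for a splicing factor subunit, averaged 13.1 ± 0.64, 13.1 ± 1.51 and 89.5 ± 5. Both were named after their values were seen, and the part of annotation was not tested. The P0 mean lay between E17 and P5 for 46 of the 54 and for 55 of the 67. These genes were chosen for E17 and P5 levels far apart, which favours a P0 mean between them. The share over all genes kept in the 3 tables was not counted, so these numbers do not show a gradual change. At P0 the median gene called higher had gone 25.6% of the way on the log2 scale, with quartiles of 6.21% and 56.2%. The median gene called lower had gone 74.7% of the way, with quartiles of 6.71% and 89.9%.

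Genes of the ameloblast programme differed in their level at P0, with the limit on annotation given above. Wnt3a averaged 2.81 ± 0.15 scaled RPKM at E17, 21.2 ± 1.18 at P0 and 28.4 ± 3.81 at P5. Dlx3, a homeobox factor mutated in an enamel and hair syndrome, averaged 12.0 ± 2 at E17, 63.0 ± 3.8 at P0 and 105 ± 5.98 at P5. Gja1 averaged 108 ± 6.44 at E17, 425 ± 12.5 at P0 and 821 ± 34 at P5. Lamb3 lay nearer its E17 level at P0, at 15.6 ± 0.83 at E17, 34.3 ± 4.84 at P0 and 227 ± 10.3 at P5. Ascl5, for a helix-loop-helix factor of the dental epithelium, was highest at P0, at 5.95 ± 0.75 at E17, 79.9 ± 5.72 at P0 and 21.5 ± 2.11 at P5. Slc13a5 was lowest at P0, at 10.1 ± 0.28 at E17, 1.01 ± 0.28 at P0 and 78.0 ± 5.83 at P5.

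Genes called lower also differed in their level at P0, with the same limit. Cdk1 averaged 61.9 ± 4.18 at E17, 71.8 ± 2.49 at P0 and 3.75 ± 0.21 at P5, so its level was low at P5 alone. The 5 mitosis genes in the P0 table had a median log2 difference of 0.31 for P0 minus E17 and -2.20 for P5 minus P0, and the 3 replication genes -0.08 and -1.85. Muscle genes were lower at P0 than at E17 to varying degrees. Myh3 averaged 46.3 ± 9.31 at E17, 0.112 ± 0.0431 at P0 and 0.0179 ± 0.0107 at P5, while Myl1 averaged 172 ± 73.8 at E17, 20.5 ± 1.13 at P0 and 0.380 ± 0.127 at P5. Acadl, an enzyme of fatty acid breakdown named after its values were seen, stayed near its E17 level at P0, at 119 ± 13.98 at E17, 97.1 ± 3.16 at P0 and 11.4 ± 0.99 at P5. The mesenchymal collagen Col3a1 averaged 440 ± 21.5, 96.0 ± 20.6 and 97.9 ± 16.2 at E17, P0 and P5, and the imprinted Grb10 108 ± 10.5, 19.2 ± 4.12 and 14.5 ± 0.84.

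**Figure D5:**
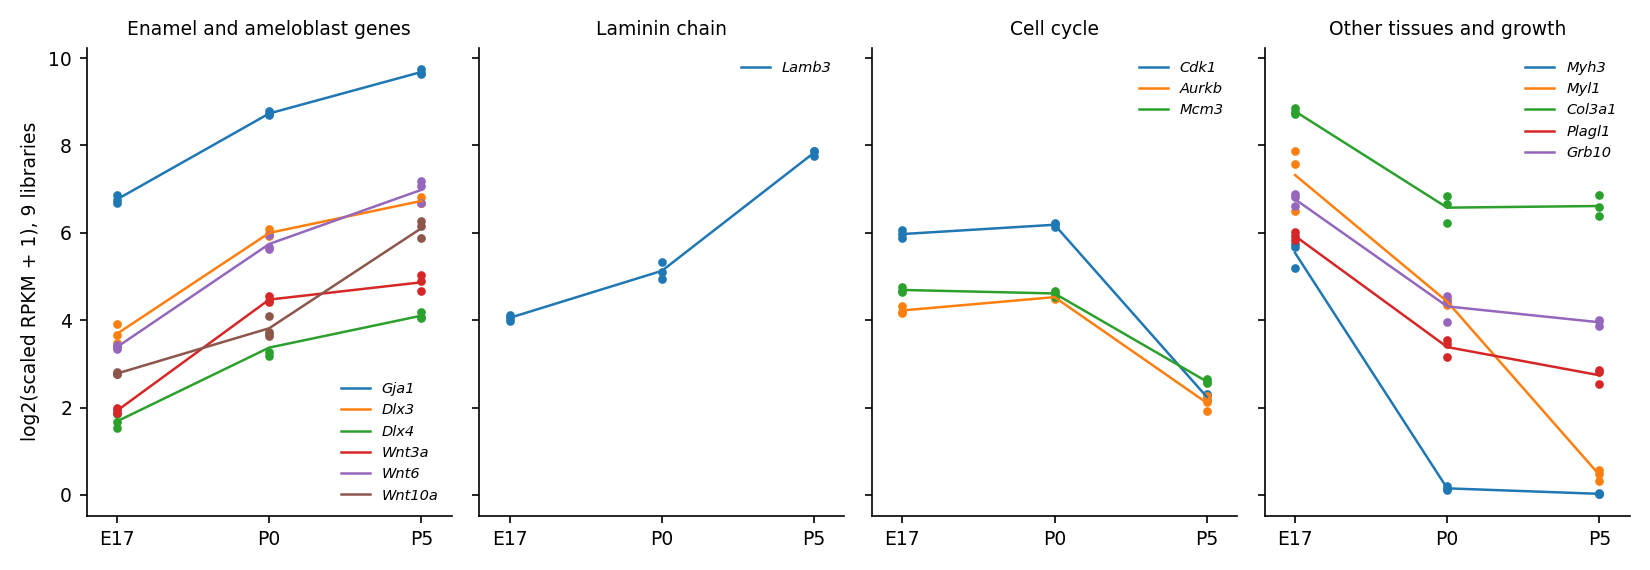
log2(scaled RPKM + 1) of genes found in all 3 tables, for 3 wild-type libraries each at E17, P0 and P5, with lines through the stage means. Cdk1, Aurkb and Mcm3 keep about their E17 level at P0, while Wnt3a, Dlx3, Myh3, Col3a1 and Grb10 have moved most of the way to their P5 level by P0.

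By the same rule, P5 libraries of the double knockout had 412 genes higher and 560 lower than its E17 libraries, of 13050 genes kept there. In wild type these numbers were 330 and 454 of 12902. Of the genes called in wild type, 278 higher ones (84.2% of the wild-type list, 67.5% of the double knockout list) and 359 lower ones (79.1% and 64.1%) were called in both. Both comparisons set the same pair of annotations against each other. In the double knockout, Amelx averaged 235214 ± 25018 scaled RPKM at P5 and 4.02 ± 0.96 at E17. The difference between genotypes was not tested here.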

How the data were processed

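The members and gene lists were chosen with earlier results of these data known. Per the labels' protocols, tissue was separated with dispase at 1 U per ml, and 1 µg of RNA (RIN above 7) was depleted of ribosomal RNA for each library. Per the submitters' processing notes, the authors used Partek on build mm10. The sources used here give no aligner, annotation release or strand setting. The deposited values are RPKM per transcript, a unit read from the values since no source names it. The deposited count of alignments per library stands in the same tables. Transcript names have the Ensembl form at E17 and P0 and the RefSeq form at P5, so differences under 4-fold were not called.

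RPKM were summed per gene symbol, divided by the upper quartile of the genes kept, and log2 transformed after adding 1 (Python 3.11.15, pandas 2.3.3, numpy 2.4.6). The procedure was checked on libraries simulated from the E17 values alone, with no difference of annotation between stages. That check covers the code and not the effect of the separate annotations and normalizations. Intervals for RPKM are not given, since reads per gene are not in the tables. There were 34 lists, and lists of fat cell, glycan and MHC class II genes were added after the values were seen. The genes named were the 15 largest differences in each direction with a mean of at least 5 scaled RPKM at the higher stage, the 15 highest at P5, up to 6 called genes per list and a fixed set of 21. Of the called genes, 34 higher and 17 lower ones with predicted, pseudogene or small RNA names were counted but not named. Csn3, Tuft1, Slc13a5, Ascl5 and others outside this rule were named after their values were seen. Alternatives were 3 other scalings, another pseudocount, 2 filters, 2 fold limits, a nearest-library rule, 2 ways to treat transcripts, and leaving out each library. Some items are not reported here. Positions are from GENCODE M21, and sequences from RefSeq on GRCm38.p6.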

Additional observations from a re-analysis of the deposited data

Results flagged for a closer look

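Hmgn2 and Ascl5 moved in opposite directions in the genotypes, in every library. Hmgn2, for a nucleosome-binding protein deleted in the double knockout, averaged 183 ± 2.72 scaled RPKM at P5 and 319 ± 11.3 at E17 in wild type, a log2 difference of -0.80. In the double knockout it averaged 10.6 ± 3.18 at P5 and 0.718 ± 0.021 at E17, a difference of 2.71. Hmgn1, also deleted there, was listed at 91.7 ± 1.19 at P5 and 70.7 ± 0.78 at E17 in the double knockout. The source of the reads listed for these deleted genes was not tested, so the Hmgn2 difference in the double knockout does not show a rise of the intact transcript. Ascl5 averaged 19.1 ± 1.84 at P5 and 5.41 ± 0.67 at E17 in wild type, a difference of 1.65. In the double knockout it averaged 3.30 ± 0.44 at P5 and 13.5 ± 0.47 at E17, a difference of -1.76. The wild-type differences are under 4-fold across tables with different annotations. The double knockout differences cross the same annotations, and the difference between genotypes was not tested.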

How the results depend on the processing

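No paired analysis was possible because the stage comparison comes from no test, and the labels tie no replicate number to a litter, animal or batch across stages. No gene called in either direction was called in the other under any of the 19 alternatives. A switch would need a move past the 4-fold limits on both sides, so this outcome was nearly fixed by the rule. With total RPKM scaling, 213 genes were higher and 804 lower, 20.9% of the calls being higher against 42.1% with upper quartiles. A pseudocount of 0.1 gave 487 and 1080 (31.1% higher). The median of all genes was -0.61 with total RPKM, -0.31 without scaling and -0.004 with median-of-ratios scaling. A 2-fold limit gave 1046 and 1939, an 8-fold limit 125 and 163, and 68 and 78 were called among the 1139 genes with a single transcript at each stage. Members of lists called lower were 152 with total RPKM. Members called higher and lower were 122 and 235 at 2-fold, 32 and 42 at 8-fold, and 13 and 15 among single-transcript genes. The number of members tested in each setting is not given here, so these member counts are not set against the shares of all genes. Leaving out each library gave 326 to 335 higher and 431 to 473 lower. Without muscle, fat cell and cornifying genes, tried after seeing the data, 322 and 409 were called. Of 136 named and called genes, 127 stayed called with median-of-ratios scaling, 130 with total RPKM and 126 with only the largest transcript. Calls close to the limit were lost without 1 library, namely Smad6 (1.996 without P5 replicate 3, 1.99 without E17 replicate 3), Bmp6 (-1.98 without P5 replicate 1, -1.94 without E17 replicate 2), Ngfr (-1.99 and -1.96 without the same libraries as Bmp6), Krt18 (-1.96 without P5 replicate 2), Fgf18 (-1.99 without E17 replicate 1), Ccne2 (-1.99 without P5 replicate 1) and Igf2bp1 (-1.95 without E17 replicate 3). Reads per gene are not in the tables, so the depth behind low values, such as those of Klk4 or Lgr5, is unknown.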

Other observations

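Enzymes that build sulfated or O-linked sugars included some of the largest differences upward, in a list made after its members had been seen. Of 30 over the filter, 5 were called higher at P5 and 1 lower, 20% in all against 6.08% of all genes kept. The median was 0.07, or -0.34 with total RPKM scaling. Gal3st4, a sulfotransferase for galactose, had 86.1, 91.8 and 92.9 scaled RPKM at P5, against 0.538, 0.510 and 0.312 at E17. Chst1, another sulfotransferase, had 214, 247 and 220 at P5, against 4.07, 4.47 and 4.203 at E17. Galnt12 and Galnt6, which start O-linked sugar chains, averaged 84.6 ± 10.4 and 64.1 ± 1.83 at P5, against 1.55 ± 0.13 and 1.80 ± 0.27 at E17. Galnt16, of the same family, was called lower, at 0.668 ± 0.12 at P5 and 6.69 ± 1.03 at E17, so members of the family differed in both directions.

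MHC class II genes, which present antigens, were called lower at P5 in 4 of 6 over the filter, against 3.52% of all genes kept, in a list also made after its members had been seen. Lower with no overlap were 5 of the 6, against 49.9% of all genes. Cd74 had 1.18, 1.13 and 1.24 scaled RPKM at P5, against 17.9, 15.02 and 16.7 at E17, and H2-Aa averaged 0.438 ± 0.251 at P5 and 8.39 ± 1.59 at E17. The salivary amylase gene Amy1 averaged 0.143 ± 0.108 at P5 and 9.58 ± 1.17 at E17.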
